A study of Arabidopsis thaliana with 305 samples.

Results

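Transcript counts of 6 genes of the ethylene response factor (ERF) family, all in its group IX, were followed in Arabidopsis thaliana leaves by genotype, infiltrated bacterium and time. They were ERF1A (AT4G17500), ERF2 (AT5G47220), ERF5 (AT5G47230), ERF6 (AT4G17490), ERF104 (AT5G61600) and ERF105 (AT5G51190), found by these locus identifiers among the 25320 genes of the count table. All 6 passed the filter on low counts and are among the 19687 genes tested.

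ERFs are plant transcription factors with a single AP2/ERF DNA-binding domain, and many of group IX bind the GCC box, a promoter element of genes that respond to ethylene, jasmonate and pathogens. Their transcripts are known to be induced quickly in leaves by microbe-derived patterns and by wounding, and some of the proteins are substrates of immune MAP kinases. ERF1A and ERF2 are GCC-box activators, ERF5 and ERF6 act in defence against Botrytis and in chitin responses with ERF6 phosphorylated by MPK3 and MPK6, ERF104 is a partner and substrate of MPK6 in flagellin signalling, and ERF105 is known from cold tolerance.

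The study compared 4 genotypes: the accession Col-0 as wild type, an nrg1.1 nrg1.2 double mutant (here nrg1), an adr1 triple mutant (adr1) and a helperless line lacking both of these helper NLR families, which pass signals on from sensor immune receptors. Leaves of 6-week-old plants grown in short days were sampled as discs before infiltration (T0) or 0.5, 4 and 8 h after infiltration with Pf0 bacteria carrying an empty vector (EV) or 1 of the effectors AvrRps4, AvrRpt2 or AvrRpm1, which are recognised through the receptors RPS4 with RRS1, RPS2 and RPM1. AvrRps4 recognition runs through receptors with a TIR domain, the others through receptors with a coiled-coil domain. The series' design text describes the AvrRps4 response as needing the helpers fully, the AvrRpt2 response partly and the AvrRpm1 response not at all. The strain Pf0 is that of the design text, whereas a protocol in the labels names Pst DC3000, and which of them was infiltrated could not be settled from the counts. No group was infiltrated without bacteria, so EV against T0 holds infiltration, bacterium and time of day together, and these cannot be told apart.

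There were 52 groups of 3 replicates, and in all but 7 of these replicates 2 libraries were summed. Replicate totals were 4276389 to 28926563 counts, with a median of 11021790. The labels do not say whether replicates came from separate plants or plantings, so p-values measure the spread between these samples. In 10 infiltrated libraries, 7 of them under EV at 8 h, ADR1-L1 counts set against ADR1-L2 counts did not match the labelled genotype. Values without them are given beside the main results at 8 h and wherever a call named here was lost without them. The ratio of these counts only sets Col-0 and nrg1 apart from adr1 and helperless. T0 labels were not checked by it, as it was 2.39 to 42.2 there in adr1 and helperless and 1.51 to 3.67 in Col-0 and nrg1. Markers of mesophyll had summed group levels of 57280 to 71910 CPM (counts scaled to library size) at 0.5 h and 1352 to 7755 at 8 h, whereas those of root stayed at or below 0.245 CPM. In such bulk samples fewer cells of a type and less RNA per cell cannot be told apart.

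Each of the 6 genes has 1 annotated transcript without introns in TAIR10.1 (RefSeq). ERF6 on the minus strand of chromosome 4 (9752824 to 9754161) and ERF1A on its plus strand (9759203 to 9760391) are head-to-head neighbours, 5041 bases apart with no annotated gene between them. ERF2 (minus strand, 19171643 to 19172956) and ERF5 (plus strand, 19179881 to 19181182) form a second such pair on chromosome 5, 6924 bases apart with a pseudogene and the gene AT5G47229 between. ERF104 (chromosome 5, minus strand, 24766344 to 24767732) lies 832 bases from another group IX gene, ERF107, and ERF105 (chromosome 5, minus strand, 20800473 to 20801437) stands apart from the other 5. Coding sequences were most alike between these neighbour pairs, not within them: ERF1A and ERF2 shared 77.6% of aligned bases, ERF5 and ERF6 77.5%, ERF104 and ERF105 72.0%, and the remaining combinations 60.3% to 70.0%. No stretch of 50 bases, the read length, was shared between members. All 916 such stretches of ERF105 also lie, as the antisense, in exons of AT5G51180 on the opposite strand. The strand setting of the counting is not given in the sources used here, and the counts of that gene are given beside those of ERF105 below.

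The 300 bases before the transcript starts of ERF1A and ERF2 are shown because these 2 genes, on different chromosomes, shared a run of 26 bases there, cgCACGTGtttaattcacgaaccttc. Capitals mark the W box core TTGAC, bound by WRKY factors, and the G box CACGTG, bound by bZIP and bHLH factors. The windows are from TAIR10.1 (RefSeq), chr4:9758903-9759202 on the plus strand for ERF1A and chr5:19172957-19173256 on the minus strand for ERF2, each read 5′ to 3′ along its gene.
ERF1A: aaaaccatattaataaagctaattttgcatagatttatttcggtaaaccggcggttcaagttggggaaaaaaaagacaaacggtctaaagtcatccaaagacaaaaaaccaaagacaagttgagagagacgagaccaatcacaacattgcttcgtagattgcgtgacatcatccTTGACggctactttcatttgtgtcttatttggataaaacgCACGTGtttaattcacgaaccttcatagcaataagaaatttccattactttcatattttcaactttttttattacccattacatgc
ERF2: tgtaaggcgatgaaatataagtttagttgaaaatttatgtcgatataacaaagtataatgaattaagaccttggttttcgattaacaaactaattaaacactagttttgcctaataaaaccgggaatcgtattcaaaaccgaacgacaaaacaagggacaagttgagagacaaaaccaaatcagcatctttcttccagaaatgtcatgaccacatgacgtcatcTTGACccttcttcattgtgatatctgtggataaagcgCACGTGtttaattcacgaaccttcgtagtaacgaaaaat
The run lies 88 to 63 bases before the start of ERF1A and 41 to 16 bases before that of ERF2, and those were the only 2 of 27438 gene windows that held it. In the other 14 combinations of members the longest shared run was 7 to 11 bases. Counting both strands, TTGAC was in 4 of the 6 windows (ERF1A, ERF2, ERF5 and ERF105) and in 50.4% of all windows, and CACGTG was in 2 of 6 and in 7.1%. The GCC box GCCGCC, the element these proteins bind, was in 0 of 6 and in 2.3%, and the rapid stress response element CGCGTT in 0 of 6 and in 3.1%.

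Within 0.5 h of infiltration with EV all 6 genes rose in Col-0 leaves, by 3.26 to 6.32 on the log2 scale, and in each gene the 3 replicates at 0.5 h lay above the 3 at T0, as they did in 22.8% of all genes tested. A gene was called changed at an adjusted p under 0.05 (edgeR's quasi-likelihood test, Benjamini-Hochberg over 19687 genes) with a log2 change of at least 1 in size, and in this comparison 14.0% of all genes tested were called higher. The median change was 5.11 over the 6 genes and -0.03 over all genes. Changes are given as log2 fold change ± SE, and levels as CPM scaled by TMM factors, in the order of replicates 1, 2 and 3.

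ERF1A went from 10.2, 6.52 and 4.80 CPM at T0 to 276, 257 and 318 at 0.5 h. The log2 change was 5.30 ± 0.52 (edgeR adjusted p = 1.63e-15). ERF2 went from 20.6, 4.92 and 6.66 CPM to 246, 162 and 206, a change of 4.25 ± 0.44. In both GCC-box activators the 3 infiltrated replicates were close together, with an SD of 31.3 CPM for ERF1A and 41.9 for ERF2. ERF5 moved from 7.18, 4.00 and 6.45 CPM to 81.8, 350 and 103, a change of 4.92 ± 0.66. Its neighbour in sequence, ERF6, moved from 6.31, 0.984 and 3.80 CPM to 172, 456 and 257, which was the largest change of the 6 at 6.32 ± 0.74 (adjusted p = 3.9e-12). Replicate 2 was the highest of the 3 infiltrated replicates in both. ERF104, the MPK6 substrate, had the smallest change, 3.26 ± 0.66 (adjusted p = 2.73e-05), from 4.64, 7.75 and 5.59 CPM to 49.4, 104 and 19.4. ERF105 went from 3.70, 1.85 and 3.15 CPM to 130, 203 and 123, a change of 5.71 ± 0.71. The antisense gene AT5G51180 had group means of 18.2 to 23.1 CPM at 0.5 h and 17.7 to 20.9 at T0, against 67.8 to 289 and 2.90 to 22.0 for ERF105, so the counting kept the reads of this overlapping pair apart.

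The genes came down again at different rates. From 0.5 to 4 h under EV all 6 fell in Col-0, where 24.6% of all genes fell. ERF105 fell by 4.31 on the log2 scale to 8.71, 5.54 and 8.74 CPM, and ERF6 fell by 4.25 to 13.2, 14.2 and 19.4 CPM. ERF2 fell by 2.47 to 48.1, 22.5 and 40.2 CPM, and ERF104 fell by 2.44 to 12.9, 6.14 and 13.0 CPM. ERF5 fell by 1.60 (± 0.57, adjusted p = 0.0124) to 51.6, 55.7 and 69.5 CPM, with replicate 2 the only one of the 0.5 h replicates above 104 CPM. ERF1A changed least, -1.03 ± 0.44 (adjusted p = 0.0378), to a mean of 139 ± 34.8 CPM (SD, n = 3), between 101 CPM in replicate 2 and 168 in replicate 3. In all 6 genes every replicate at 4 h lay below every replicate at 0.5 h, as did 34.9% of all genes. Leaving out replicate 2 took ERF1A (-0.80, adjusted p = 0.263), ERF5 (-0.50, 0.564) and ERF104 (-1.30, 0.158) below the threshold, and so 3 of the 6 calls. ERF1A also did not pass without replicate 1 (-0.99) or replicate 3 (-1.09, 0.106), or without the 10 libraries (-0.93, 0.0671).

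At 4 h under EV 5 of the 6 genes were still above T0 in Col-0, where 23.1% of all genes were higher. ERF1A stood highest at 4.28 ± 0.50 above T0, followed by ERF5 at 3.33 ± 0.62, ERF6 at 2.08 ± 0.63, ERF2 at 1.78 ± 0.40 and ERF105 at 1.40 ± 0.62. ERF104 did not pass, at 0.82 ± 0.62 (95% interval -0.42 to 2.06, adjusted p = 0.243). Without replicate 3 neither ERF6 (1.92, adjusted p = 0.0753) nor ERF105 (1.36, 0.156) passed, and ERF105 did not pass without replicate 2 (1.3, 0.174). By 8 h ERF1A (91.8, 41.0 and 72.5 CPM) and ERF5 (36.0, 15.3 and 26.6 CPM) remained higher than at T0, by 3.25 ± 0.48 and 2.15 ± 0.59, where 19.1% of all genes were higher. Without the libraries against their label, which include replicate 3 of this group, the values were 3.26 and 2.19 and both still passed. ERF2, ERF6, ERF104 and ERF105 stood 0.32 to 1.23 above T0 and did not pass. From 4 to 8 h 1 of the 6 genes, ERF2, fell (-1.35 ± 0.40, adjusted p = 0.0179), where 3.54% of all genes fell. It passed without the 10 libraries (-1.44, 0.0332), but not without replicate 1 (-1.15, 0.0844), replicate 2 (-1.42, 0.183) or replicate 3 (-1.40, 0.0668). ERF1A and ERF5, at -1.03 ± 0.44 and -1.18 ± 0.56, did not pass there.

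**Figure D1:**
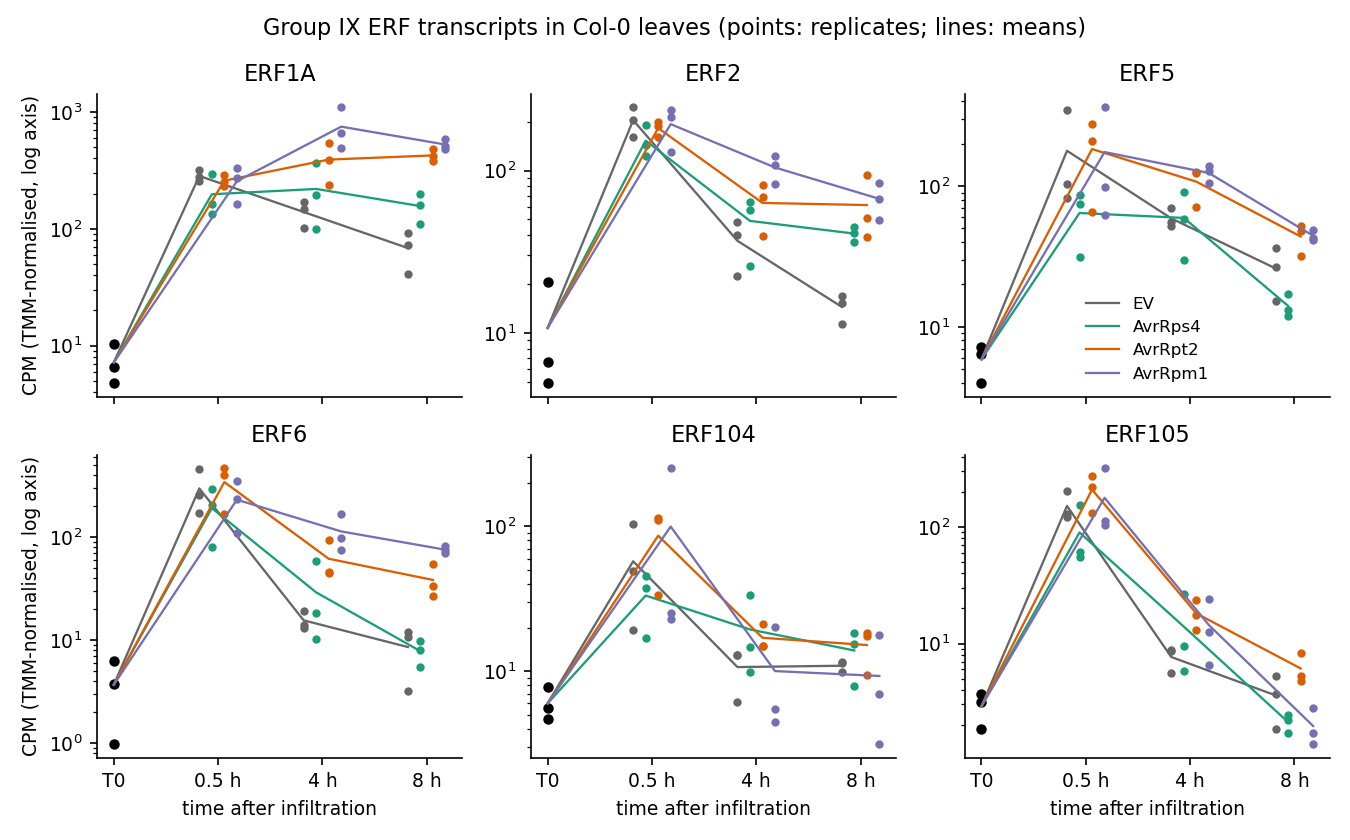
Levels of the 6 genes in Col-0 leaves (CPM on a log axis) against time after infiltration, 1 panel per gene, with the sampling times evenly spaced and not to scale. Points are replicates and lines join group means for T0 and the 4 bacteria. At 0.5 h the means of all 6 genes lie above T0 with every bacterium, and at 4 and 8 h those of ERF1A, ERF2 and ERF6 lie higher with AvrRpt2 and AvrRpm1 than with EV.

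The 0.5 h level varied with the replicate number in 4 of the genes, and did so in groups of every genotype and bacterium. Replicate 1 was the lowest of the 3 in 16 of 16 groups at 0.5 h for ERF5, in 15 for ERF6 and ERF104 and in 14 for ERF105. For ERF1A it was the lowest in 9 groups and for ERF2 in 4. Over all genes 4.572% had replicate 1 lowest in at least 14 of the 16 groups and 0.999% in all 16. The log2 difference of replicate 1 from the mean of replicates 2 and 3 had a median over the 16 groups of -1.55 for ERF5, -1.37 for ERF104, -1.31 for ERF6 and -0.84 for ERF105. It was -0.19 for ERF1A and 0.05 for ERF2. Over all 48 replicates at 0.5 h ERF5 ranged from 12.3 to 507 CPM with a median of 128, and ERF104 from 8.41 to 251 CPM with a median of 74.5. ERF2 covered a narrower span, 77.8 to 263 CPM with a median of 164. The labels do not say what the replicate numbers mark.

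**Figure D2:**
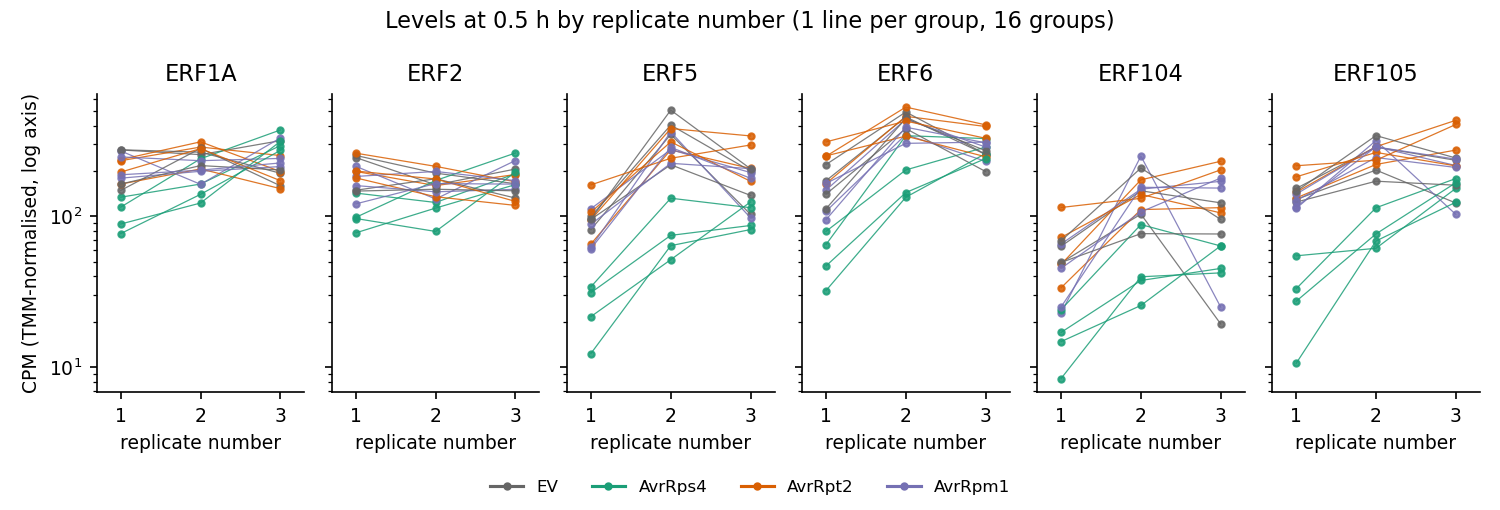
Levels at 0.5 h (CPM, log axis) of the 6 genes in replicates 1, 2 and 3, 1 panel per gene and 1 line for each of the 16 groups of genotype and bacterium. The lines join the replicates of a group and imply no order, and replicate 1 is the lowest in 14 to 16 of 16 groups for ERF5, ERF6, ERF104 and ERF105.

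The early rise was also measured in the 3 mutants. In nrg1 all 6 genes rose at 0.5 h with EV, by 2.20 to 5.24, where 13.8% of all genes rose. Helperless leaves gave 6 of 6 as well, by 3.75 to 6.10, where 12.4% rose. In adr1 5 of 6 rose, by 2.71 to 3.88, where 12.3% of all genes rose, and ERF104 stood at 1.06 and did not pass (adjusted p = 0.222). Without replicate 3 ERF104 did not pass in nrg1 either (1.76, adjusted p = 0.118). Each contrast is against the genotype's own T0 group, and whether the rise differed between genotypes was not tested. At 4 h against T0 3 of the 6 were higher in nrg1, ERF1A by 4.24, ERF2 by 2.05 and ERF5 by 2.16, where 23.1% of all genes were. In helperless 4 were higher, ERF1A by 4.17, ERF2 by 2.05, ERF5 by 2.96 and ERF6 by 2.12, where 20.6% of all genes were. The call on ERF6 there was lost without replicate 2 (1.47, adjusted p = 0.0899), without replicate 3 (1.97, 0.0728) and with 1 library per replicate (1.55, 0.0517), and that on ERF5 in nrg1 without replicate 3 (1.90, 0.0539).

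Each mutant was also set against Col-0 at T0 and at 0.5 and 4 h with EV. At T0 the adr1 leaves held ERF105 at 27.4, 25.0 and 13.8 CPM, against 3.70, 1.85 and 3.15 in Col-0. The groups did not overlap, with adr1 above Col-0 as in 2.74% of all genes, and the change of 2.93 ± 0.64 (95% interval 1.66 to 4.20) passed with an adjusted p of 0.0266, where 0.0762% of all genes were higher. ERF104 had 30.3, 44.1 and 22.7 CPM in adr1, which also lay above all Col-0 replicates, with a change of 2.43 ± 0.64 that did not pass (0.212). ERF6 and ERF5 stood at 2.15 ± 0.64 and 1.98 ± 0.59, ERF1A at 0.94 and ERF2 at 0.46, and none of them passed. The unadjusted p was under 0.05 for 5 of the 6 genes, and for 310 of all 19687 genes tested. The median change was 2.06 over the 6 genes and 0 over all genes. The call on ERF105 is not firm: it did not pass without replicate 2 (2.56, adjusted p = 1), without replicate 3 (3.24, 0.523) or with only the 2 groups in the fit (2.94, 0.241), while DESeq2 called ERF104 (2.46, 0.0114) and ERF6 (2.17, 0.0423) in addition. Without replicate 1 ERF6 (3.15, 0.0242) and ERF5 (2.39, 0.0484) passed.

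In nrg1 at T0 the values of ERF104 (11.9, 50.4 and 10.3 CPM) and ERF105 (6.63, 27.3 and 6.19 CPM) were carried by replicate 2, and their changes of 2.02 and 2.22 did not pass. Helperless, which lacks both helper families, stood between -0.26 and 0.63 of Col-0 at T0, with 95% intervals from -1.12 to 1.86. Under EV the adr1 levels differed from Col-0 by -0.52 to 0.23 at 0.5 h (intervals -1.45 to 1.41) and by -0.42 to 0.46 at 4 h (-1.28 to 1.65). In these 12 values edgeR called 0, where 0.0356% and 0.0203% of all genes were called, the unadjusted p was under 0.05 for 0 and DESeq2 called 0. The higher T0 group enters adr1's own EV contrasts: at 4 h against T0 ERF104 fell there (-1.58, adjusted p = 0.0222, but -1.22 and 0.179 without replicate 2), where 24.0% of all genes fell. ERF1A, ERF2 and ERF5 rose in adr1 over the same interval, where 21.4% of all genes rose. ERF2, at 1.00, lay on the threshold and did not pass without replicate 1 (0.75, 0.139), without replicate 2 (1.01, 0.101) or without the filter, and ERF5, at 1.54, did not pass without replicate 3 (1.57, 0.114). Over the 3 time points edgeR called 0 of 18 values in nrg1 against Col-0, where 0.0152%, 0.0102% and 0.0152% of all genes were called. It called 0 of 18 in helperless against Col-0, where 0.0102%, 0.0508% and 0.0203% were. An unadjusted p under 0.05 was found for 2 and 0 of these values, and DESeq2 called 0 in both mutants. Of all 19687 genes it was found for 160 to 232 in nrg1 and 139 to 499 in helperless, by time point.

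At 0.5 h no effector changed any of the 6 genes past the threshold. In the 4 genotypes edgeR called 0 of 72 values, where 0.0102% of all genes were called with AvrRps4 in Col-0 and 0% in the other 11 comparisons, and DESeq2 called 0. The unadjusted p was under 0.05 for 7 values, all of them lower with AvrRps4 than with EV. With AvrRps4 it was under 0.05, in either direction, for 562 to 781 of 19687 genes by genotype. The comparisons in the mutants were added after those in Col-0 had been seen. ERF5 had 31.2, 74.9 and 87.1 CPM with AvrRps4 in Col-0, against 81.8, 350 and 103 with EV, and 21.7, 51.7 and 125 in helperless, against 95.8, 507 and 207. Its replicate lay below the EV replicate of the same number in 12 of 12 cases over the 4 genotypes, as in 0.488% of all genes. The change was -1.47 ± 0.57 in Col-0, -1.32 ± 0.56 in nrg1, -1.52 ± 0.57 in adr1 and -2.03 ± 0.58 in helperless (adjusted p = 1, 1, 1 and 0.542), and with the replicate block it did not pass in any of them (-1.93 and 0.273 in helperless). ERF104 and ERF105 lay lower in 11 of 12 cases, where 1.94% of all genes did so in at least 11. ERF1A, ERF2 and ERF6 lay lower in 9, where 12.38% of all genes did so in at least 9. Changes with AvrRps4 were -0.79 to -1.84 for ERF104 and -0.76 to -1.44 for ERF105. Over all 72 values the 95% intervals lay between -3.17 and 1.98. The 4 EV groups are shared by the 3 effectors.

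From 4 h on, ERF1A, ERF2 and ERF6 were higher with AvrRpm1 than with EV. In Col-0 at 4 h ERF1A had 658, 492 and 1098 CPM with AvrRpm1 against 101 to 168 with EV, and the groups did not overlap, with AvrRpm1 above EV as in 19.6% of all genes. The change was 2.43 ± 0.45 (edgeR adjusted p = 7.87e-05). ERF2 had 82.4, 108 and 123 CPM against 48.1, 22.5 and 40.2, a change of 1.5 ± 0.40 (0.00478). ERF6 had 98.1, 74.8 and 167 CPM against 13.2, 14.2 and 19.4, a change of 2.86 ± 0.63 (0.000768). These were 3 of the 6 genes, where 8.06% of all genes rose. ERF5 also lay above EV in all 3 replicates, at 139, 128 and 105 CPM against 51.6, 55.7 and 69.5, but its change of 1.07 ± 0.56 did not pass (0.191). ERF105 stood at 0.92 ± 0.60 and ERF104 at -0.09 ± 0.62, with an interval of -1.32 to 1.14 for the latter. Without replicate 2 ERF2 did not pass in Col-0 (1.09, 0.234), and without replicate 3 ERF6 did not (2.66, 0.0711). Leaving out a replicate number leaves 2 replicates per group, so a lost call does not by itself show an effect of that replicate.

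The AvrRpm1 response at 4 h was also measured in the mutants. Over the 4 genotypes ERF1A changed by 2.43 to 2.58, ERF2 by 1.44 to 1.52 and ERF6 by 2.64 to 2.88, and all 3 passed in each genotype, where 6.54% of all genes rose in nrg1, 5.62% in adr1 and 8.45% in helperless. In nrg1, where 1 library goes against its label, the values without it were 2.35, 1.38 and 2.49 and all 3 passed. The tests of the differences from Col-0 are given with the interactions below. Leaving out replicate 2 ended the call on ERF2 also in nrg1 (1.43, adjusted p = 0.21), adr1 (1.14, 0.35) and helperless (1.49, 0.112). It ended the call on ERF1A in nrg1 (2.26, 0.0534) and on ERF6 in nrg1 (2.50, 0.0875) and adr1 (2.53, 0.0604), and ERF6 in adr1 was also lost without replicate 3 (2.72, 0.0634).

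With AvrRpt2 at 4 h 1 of the 3 genes, ERF1A, passed in Col-0. It had 239, 543 and 392 CPM, above all EV replicates as in 15.5% of all genes, and its change of 1.49 ± 0.44 passed (adjusted p = 0.0394), as 1 of the 6 genes where 2.31% of all genes rose. It passed in nrg1 and adr1 too, where 2.38% and 1.23% of all genes rose, and the range over the 4 genotypes was 1.32 to 1.57, with helperless at 1.32 (0.1) short of the threshold and 2.17% of all genes higher there. Without the 10 libraries against their label none of these 3 calls held, at 1.47 (0.056) in Col-0, 1.57 (0.0558) in adr1 and 1.48 (0.05) in nrg1, although none of those libraries is in the groups compared. In Col-0 it was also lost without replicate 2 (0.89, 1) and replicate 3 (1.65, 0.176). ERF6 had 45.0, 93.9 and 45.5 CPM in Col-0, above all EV replicates, and a change of 1.98 ± 0.61 that narrowly did not pass (0.0544). With the replicate number as a block it passed in Col-0 (1.92, 0.024) and in helperless (1.78, 0.047). ERF2 stood at 0.78 ± 0.39, ERF5 at 0.87 ± 0.56, ERF104 at 0.68 ± 0.61 and ERF105 at 1.25 ± 0.60, none past the threshold.

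At 8 h ERF1A, ERF2 and ERF6 were higher than under EV with both AvrRpt2 and AvrRpm1 in all 4 genotypes. In Col-0 ERF1A had 378, 478 and 419 CPM with AvrRpt2 and 585, 508 and 486 with AvrRpm1, against 91.8, 41.0 and 72.5 with EV. Its changes were 2.63 ± 0.46 (adjusted p = 9.47e-06) and 2.94 ± 0.46 (3.82e-07). ERF2 had 39.0, 51.0 and 93.9 CPM and 66.9, 84.0 and 49.9 CPM, against 15.4, 11.3 and 16.8. Its changes were 2.08 ± 0.40 and 2.21 ± 0.41. In ERF6 levels were 33.2, 54.8 and 26.9 CPM and 81.3, 69.3 and 74.8 CPM, against 10.6, 3.22 and 11.9. Its changes were 2.15 ± 0.62 (0.00632) and 3.13 ± 0.64 (5e-05). In these 3 genes every replicate lay above every EV replicate with both effectors, as did 25.9% of all genes with AvrRpt2 and 29.1% with AvrRpm1. With AvrRpt2 3 of 6 genes rose where 9.67% of all genes rose, and with AvrRpm1 3 of 6 where 16.6% rose. The EV group is shared by both contrasts.

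Across the 4 genotypes the 8 h changes of ERF1A were 2.63 to 3.26 with AvrRpt2 and 2.94 to 3.45 with AvrRpm1. Those of ERF2 were 1.41 to 2.18 and 1.88 to 2.21, and those of ERF6 2.15 to 3.00 and 3.13 to 4.05. All 24 of these values passed, where 12.0%, 13.1% and 10.4% of all genes rose with AvrRpt2 in nrg1, adr1 and helperless, and 16.7%, 19.4% and 18.7% with AvrRpm1. All 24 also passed without the 10 libraries, over 1.41 to 3.83. The largest shift was 0.611, for ERF2 in adr1 with AvrRpm1, where replicate 2 at 90.3 CPM goes against its label and the others had 43.7 and 30.5. Without replicate 2 ERF6 with AvrRpt2 did not pass in Col-0 (1.36, adjusted p = 0.189) or helperless (1.23, 0.295), nor did ERF2 in helperless (1.24, 0.139). Without replicate 3 ERF6 with AvrRpt2 did not pass in nrg1 (2.37, 0.0613) or helperless (2.44, 0.0542).

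ERF5, ERF104 and ERF105 did not pass at 8 h in Col-0. ERF5 stood at 0.75 ± 0.56 with AvrRpt2 and 0.77 ± 0.56 with AvrRpm1, ERF104 at 0.47 ± 0.61 and -0.23 ± 0.62, and ERF105 at 0.76 ± 0.62 and -0.86 ± 0.66. Their 95% intervals reached 1.88 for ERF5, 1.68 for ERF104 and 1.98 for ERF105, so rises of those sizes lay within them. ERF5 had 43.1, 48.8 and 41.1 CPM with AvrRpm1 against 36.0, 15.3 and 26.6 with EV, without overlap. It lay above every EV replicate with AvrRpm1 in all 4 genotypes, as did 29.1% to 30.0% of all genes. With AvrRpt2 it did so in nrg1 and adr1, as did 26.0% and 27.3% of all genes. Of the values of these 3 genes in the mutants 2 passed. ERF5 rose in adr1 with AvrRpm1 (1.44, adjusted p = 0.0303), but not without the 10 libraries (1.16, 0.2), replicate 2 (1.22, 0.172) or replicate 3 (1.45, 0.164). ERF105 fell in nrg1 with AvrRpm1, where 14.6% of all genes fell, to 0.489, 0.763 and 1.73 CPM against 2.47, 4.24 and 3.97 with EV. The change was -1.79 ± 0.71 (0.0326) and passed without the 10 libraries (-1.70, 0.0492), but not without replicate 2 (-1.50, 0.212) or replicate 3 (-2.38, 0.0671). Other settings added calls. Without replicate 1 ERF5 passed with AvrRpt2 in helperless (1.99, 0.00238, against 1.07 with all replicates), adr1 (1.79, 0.00619) and nrg1 (1.44, 0.0255), and with AvrRpm1 in helperless (1.95, 0.00165) and nrg1 (1.23, 0.0471). ERF105 then passed with AvrRpt2 in helperless (2.05, 0.00775). ERF5 with AvrRpt2 in adr1 (1.32, 0.0512) also passed in DESeq2 (1.37, 0.0329) and with the replicate block (1.22, 0.0436). ERF104 with AvrRpm1 lay below every EV replicate in 3 of the 4 genotypes, where 26.9% to 28.7% of all genes did, with no value past the threshold.

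**Figure D3:**
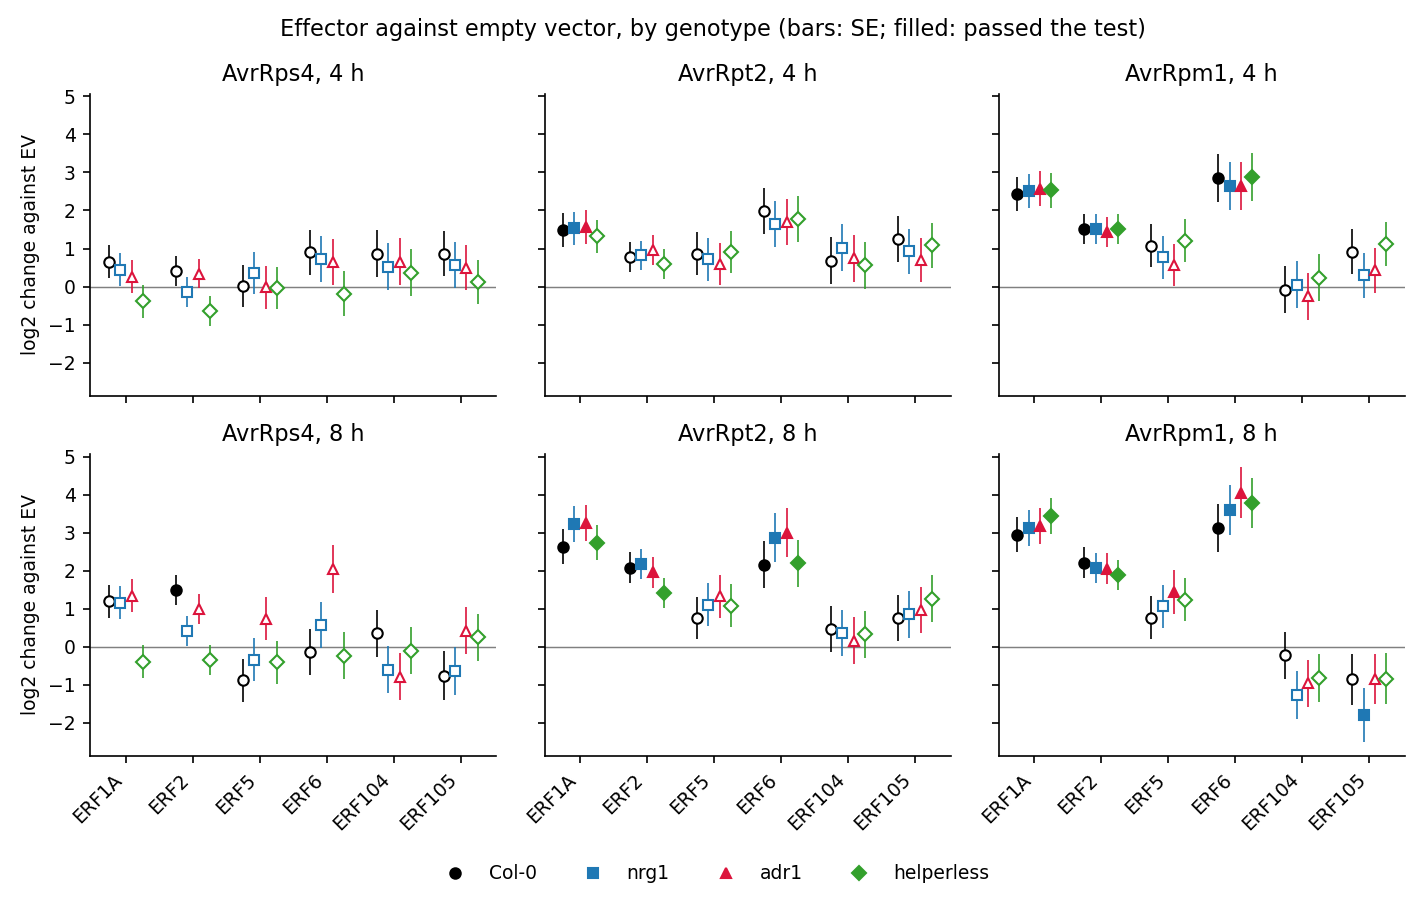
Log2 change of each of the 6 genes against EV of the same genotype and time, for 4 and 8 h and the 3 effectors, with the 4 genotypes side by side and bars of ± 1 SE. Filled points passed the threshold: ERF1A, ERF2 and ERF6 with AvrRpm1 at 4 h and with AvrRpt2 and AvrRpm1 at 8 h passed in every genotype, and with AvrRps4 1 value passed, that of ERF2 in Col-0 at 8 h.

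With AvrRps4 few values passed. At 4 h edgeR called 0 of 24 values over the 4 genotypes, where 0.528% of all genes were called in Col-0, 0.112% in nrg1 and 0% in adr1 and helperless. The unadjusted p was under 0.05 for 0 of them and DESeq2 called 0, with changes of -0.64 to 0.90. Of all 19687 genes it was under 0.05 for 1971 in Col-0, 1324 in nrg1, 1173 in adr1 and 197 in helperless. At 8 h 1 of the 6 genes rose in Col-0, where 3.50% of all genes rose. This was ERF2, which had 36.3, 41.5 and 45.0 CPM with AvrRps4 against 15.4, 11.3 and 16.8 with EV, above all EV replicates as in 18.2% of all genes. The change of 1.5 ± 0.40 (adjusted p = 0.00774) held without the 10 libraries (1.59, 0.0338), but not without replicate 2 (1.31, 0.229) or replicate 3 (1.54, 0.0689). ERF1A had 110, 161 and 199 CPM against 91.8, 41.0 and 72.5, again without overlap, and a change of 1.19 ± 0.44 that did not pass (0.077), nor without the 10 libraries (1.21, 0.201). DESeq2 called it (1.22, 0.0497), and it passed without replicate 1 (1.65, 0.0101). ERF6, which rose with the other effectors, had 5.53, 8.07 and 9.81 CPM against 10.6, 3.22 and 11.9, with a change of -0.14 ± 0.61, and of 0.12 without the 10 libraries.

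In nrg1 and adr1 no gene passed with AvrRps4 at 8 h, where 2.65% and 1.55% of all genes rose. ERF1A stood at 1.16 ± 0.44 (adjusted p = 0.121) in nrg1 and 1.35 ± 0.44 (0.0887) in adr1, and passed in both without replicate 1 (1.80, 0.00378, and 2.04, 0.00415). Without the 10 libraries the values were 1.07 (0.185) and 1.27 (0.329). ERF6 stood at 2.04 ± 0.63 (0.0667) in adr1 and passed there without replicate 1 (2.85, 0.00351), but stood at 1.86 (0.305) without the 10 libraries. Over all 4 genotypes 1 of 24 values passed by edgeR at 8 h, against 3 in DESeq2, and the unadjusted p was under 0.05 for 6. Of all 19687 genes it was under 0.05 for 4207 in Col-0, 3568 in nrg1, 3000 in adr1 and 804 in helperless. In helperless leaves, where 0% of all genes were called at 4 or 8 h, edgeR called 0 of 12 values, the unadjusted p was under 0.05 for 0 and DESeq2 called 0. ERF2 had 11.2, 11.7 and 16.5 CPM with AvrRps4 at 8 h against 16.0, 17.9 and 16.7 with EV, and ERF1A had 49.1, 55.9 and 29.0 against 86.9, 39.9 and 48.7. The changes were -0.36 ± 0.39 and -0.39 ± 0.43, or -0.38 and -0.53 without the 10 libraries.

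Whether a response differed between a mutant and Col-0 was tested directly as an interaction, for the 3 effectors at 4 and 8 h in the 3 mutants. Of these 108 values edgeR called 0 and DESeq2 1, and the unadjusted p was under 0.05 for 4. Of all 19687 genes it was under 0.05 for 121 to 2933 by test, the most being for AvrRps4 at 8 h in helperless. Of all genes edgeR called 1.75% for AvrRps4 at 8 h in helperless, 0.00508% for AvrRpt2 and 0.0102% for AvrRpm1 at 8 h in both adr1 and helperless, and 0% in the other 13 tests. The closest was ERF2 with AvrRps4 at 8 h, whose response in helperless was lower than in Col-0 by a log2 difference of -1.86 ± 0.56 (95% interval -2.96 to -0.75, adjusted p = 0.0548). It passed in DESeq2 (-1.88, 0.0297), with the replicate block (-1.86, 0.0421) and with only the compared groups in the fit (-1.83, 0.0136), and stood at -1.97 (0.184) without the 10 libraries. For ERF1A the same difference was -1.58 ± 0.61 (0.178), or -1.74 (0.403) without them. For ERF6 in adr1 with AvrRps4 at 8 h it was 2.18 ± 0.87 (0.577), or 1.74 (1) without them. The 95% intervals of the 108 differences had a median width of 3.22 on the log2 scale. For AvrRpm1 at 4 h the differences from Col-0 in the 3 mutants had intervals from -1.13 to 1.36 for ERF1A, -1.15 to 1.1 for ERF2 and -1.88 to 1.68 for ERF6.

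The effectors were also compared with each other in Col-0, as AvrRps4 and AvrRpm1 against AvrRpt2 at 4 and 8 h. Of 24 values edgeR called 0 and DESeq2 1, and the unadjusted p was under 0.05 for 6. Of all 19687 genes it was under 0.05 for 3532 and 2424 with AvrRps4, and for 2834 and 6530 with AvrRpm1, at 4 and 8 h. Of all genes edgeR called 0.0356% and 0.213% for AvrRps4, and 1.65% and 11.6% for AvrRpm1, at 4 and 8 h. ERF6 at 8 h was lower with AvrRps4 than with AvrRpt2 by a log2 difference of -2.30 ± 0.62 (adjusted p = 0.0718), and this was the value DESeq2 called. It also passed with the replicate block (-2.30, 0.0256). AvrRpm1 against AvrRpt2 gave 0.94 ± 0.43 for ERF1A at 4 h and -1.62 ± 0.65 for ERF105 at 8 h (0.281 and 0.0672).

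The order of the groups differed between the genes. For ERF2, ERF6 and ERF105 the 16 groups at 0.5 h were the 16 highest of all 52, and for ERF104 15 and for ERF5 12 of them were. For ERF1A 0 of the 16 highest groups were from 0.5 h, since its levels with AvrRpm1 and AvrRpt2 at 4 and 8 h were above them. The highest mean of each of the other 5 genes was in nrg1 with AvrRpt2 at 0.5 h, for example 395 ± 140 CPM for ERF6 and 152 ± 94.2 for ERF104 (SD, n = 3). Lowest means lay at T0 for ERF1A, ERF2, ERF5 and ERF6, and in nrg1 with AvrRpm1 at 8 h for ERF104 (5.18 ± 2.95 CPM) and ERF105 (0.995 ± 0.654). Per kilobase of coding sequence ERF1A made up a median of 13.8% of the summed level of the 6 genes at T0, 19.2% at 0.5 h, 55.9% at 4 h and 69.5% at 8 h. The share of ERF105 went from 15.9% and 19.7% to 3.68% and 1.52% over the same times, and that of ERF104 from 25.8% to 9.21%, 3.70% and 3.62%. Coding length leaves out the untranslated parts, and it was 807 of 1189 transcript bases in ERF1A but 726 of 1389 in ERF104. The size of a share therefore depends on the length used.

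Across the 52 group means of log2 CPM the profiles of ERF2 and ERF6 were the most alike of the 15 combinations (Pearson's r = 0.97), followed by ERF104 with ERF105 (0.94), ERF5 with ERF6 (0.89) and ERF2 with ERF5 (0.88). Ranked by likeness among all genes tested, ERF6 was number 16 for ERF2, ERF105 number 4 for ERF104, ERF6 number 155 for ERF5 and ERF5 number 520 for ERF2. ERF1A and ERF2, which share the 26-base upstream run shown above, had 0.71, with ERF2 number 1470 for ERF1A. ERF1A had 0.07 with ERF104 and 0.17 with ERF105. Over all replicates taken as deviations from their group means the order was another one, from 0.80 for ERF5 and ERF6 to -0.03 for ERF2 and ERF104. ERF1A with ERF2, ERF5 with ERF105 and ERF104 with ERF105 each had 0.72. These values describe samples that share libraries, scaling and time points. Among 19681 genes the profiles most like ERF1A were those of PLDBETA1 (0.979), a phospholipase D, ERF1B (0.978), a group IX activator of ethylene and jasmonate responses, and AT3G61800 (0.977). RDUF2, a RING-type ubiquitin ligase gene, was the most like both ERF2 (0.981) and ERF6 (0.984). ZAT11, a zinc-finger factor, reached 0.949 with ERF5, NAC036 reached 0.946 with ERF104, and CAF1a, a deadenylase subunit, reached 0.969 with ERF105.

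The other genes of group IX that were counted gave a wider spread than the 6. Of 11 listed 10 were tested. In Col-0 at 0.5 h with EV 5 rose and 2 fell, where 14.0% of all genes rose and 8.60% fell, and their median change was 3.04, or 1.66 with genes at 0 counts in a group set to the bound that 3 counts over the group allow, against -0.03 for all genes. ERF13 went from 2.83, 0.738 and 1.36 CPM to 237, 227 and 146, a change of 6.96 ± 0.71, and TDR1 rose by 7.63 ± 0.96. ERF1B, with 4 counts in all at T0, rose by 5.35 ± 0.76, and ESE1 went from 0 counts to 133, at least 66.2-fold higher. The rise of ERF15 (2.01) was lost without replicate 2 (1.49, adjusted p = 0.317) or 3 (2.06, 0.0521). ERF106 and ERF107 went the other way. ERF107, next to ERF104 on chromosome 5, had 46.6, 91.7 and 25.5 CPM at T0 and 12.3, 6.67 and 9.01 at 0.5 h. Its change was -2.55 ± 0.69 (adjusted p = 0.00221, but -1.91 and 0.112 without replicate 2), and that of ERF106 was -2.17 ± 0.61 (0.0033). At 4 h 6 rose and 2 fell, where 23.1% of all genes rose and 25.7% fell, among them ERF096, which went from 0 counts at T0 to 83, at least 31.4-fold higher, and ERF1B at 5.03 ± 0.76.

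With AvrRpm1 at 4 h TDR1 (2.89 ± 0.80) and ERF1B (1.73 ± 0.51) rose among the 10, where 8.06% of all genes rose, and their median was 1.37 against 0.05 for all genes. Neither passed without replicate 2 (2.50, adjusted p = 0.177, and 1.23, 0.305) or replicate 3 (2.75, 0.0757, and 1.59, 0.137). At 8 h 5 rose and 1 fell, where 16.6% of all genes rose and 11.6% fell, with a median of 1.89 against 0.03. Without replicate 1 ERF14 (2.85, adjusted p = 0.0832), ERF15 (1.79, 0.0584) and the falling ERF106 (-1.37, 0.154) did not pass. Without replicate 2 these did not pass either (3.21, 0.0679, then 1.93, 0.164, and -1.56, 0.126). ERF096 had 31.8, 23.4 and 22.0 CPM against 1.08, 0.847 and 1.11 with EV, a change of 4.65 ± 0.82. ERF1B, whose profile was close to that of ERF1A, rose by 2.34 ± 0.53 with AvrRpm1 and by 1.92 ± 0.53 with AvrRpt2 at 8 h, the latter not without replicate 2 (1.93, 0.0601) or replicate 3 (1.77, 0.0723).

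**Figure D4:**
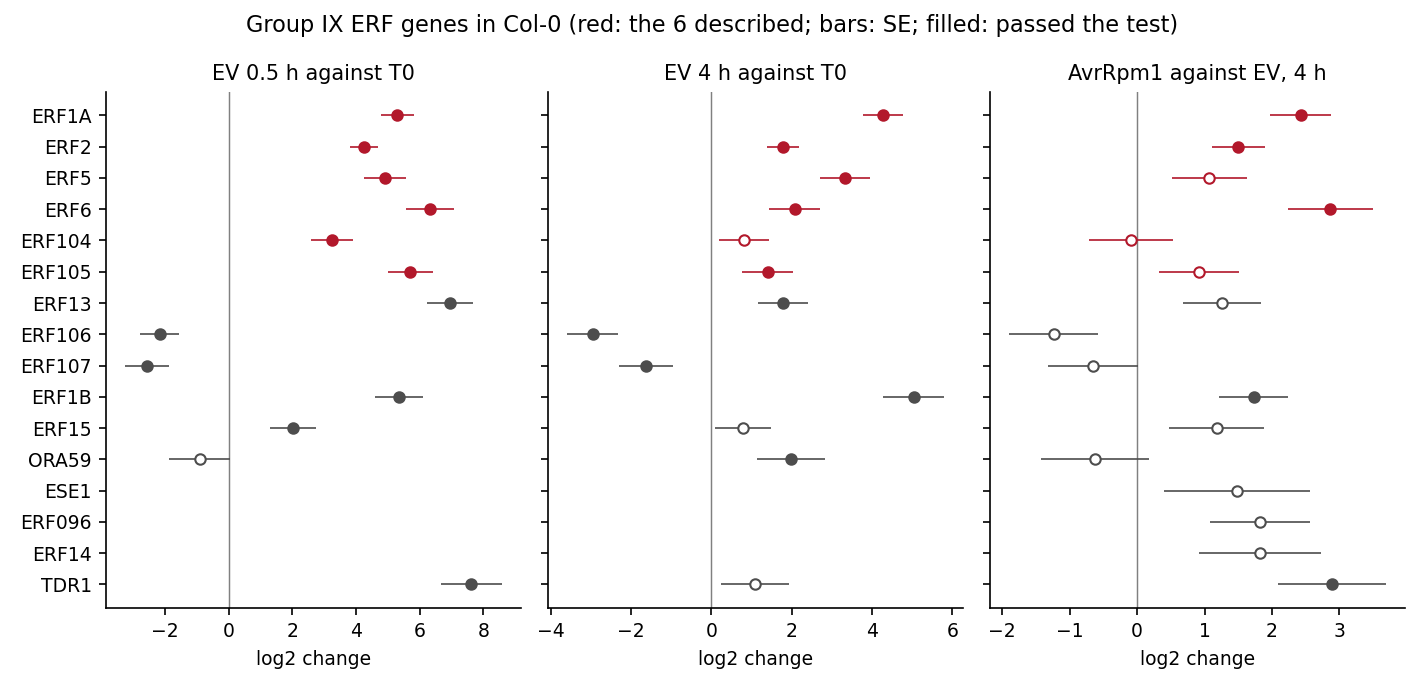
Log2 changes with ± 1 SE of the counted group IX ERF genes in Col-0, for EV at 0.5 h against T0, EV at 4 h against T0 and AvrRpm1 against EV at 4 h. The 6 genes described here are in red and the other group IX genes in grey, genes with 0 counts in a group are not drawn, and at 0.5 h the 6 lie between 3.26 and 6.32 while ERF106 and ERF107 lie below 0.

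ERFs with an EAR motif repress GCC-box genes. Of 8 listed 7 were tested, and 5 rose at 0.5 h with EV in Col-0, where 14.0% of all genes rose, with a median of 1.67. Without replicate 2 ERF7 (0.97) and ERF12 (2.74, adjusted p = 0.0651) did not pass. ERF11 went from 4.50, 0.246 and 1.29 CPM to 236, 344 and 149.1, a change of 6.93 ± 0.65, and ERF4 rose by 3.83 ± 0.30. ERF12 had 2 counts at T0 and 20 at 0.5 h over the 3 replicates. At 4 h 5 were higher, where 23.1% of all genes were, with ERF4 at 1.95 ± 0.28. With effectors 1 of the 7 passed at a time, where 8.06% of all genes rose with AvrRpm1 at 4 h, 9.67% with AvrRpt2 at 8 h and 16.6% with AvrRpm1 at 8 h: ERF11 with AvrRpm1 at 4 h (1.47 ± 0.51) and with AvrRpt2 at 8 h (1.62 ± 0.52), and ERF12 with AvrRpm1 at 8 h (1.46 ± 0.50). Each of these 3 calls was lost without replicate 2 (0.83, adjusted p = 0.534, then 1.40, 0.162, and 1.43, 0.0954). ERF11 with AvrRpm1 was also lost without replicate 1 (1.65, 0.0533) or 3 (1.74, 0.0699) and without the 10 libraries (1.41, 0.0503), ERF11 with AvrRpt2 without replicate 3 (1.73, 0.0506), and ERF12 without replicate 1 (1.36, 0.0791).

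Of 9 genes of the immune MAP kinase cascades, to which the kinases of ERF6 and ERF104 belong, 5 rose at 0.5 h with EV in Col-0, where 14.0% of all genes rose, with a median of 2.13: MPK3 (4.41 ± 0.45), MKK4 (3.83 ± 0.48), MEKK1 (2.88 ± 0.24), MKK5 (2.15 ± 0.29) and MKK9 (2.13 ± 0.27). MPK3 went from 99.1, 66.2 and 89.9 CPM to 1825, 2376 and 1218. MPK6, which phosphorylates ERF6 and ERF104, did not pass at 0.5 h (0.33 ± 0.18) and was among the 6 higher at 4 h (1.47 ± 0.18), where 23.1% of all genes were. Against EV 3 rose with AvrRpt2 at 4 h, 3 with AvrRpm1 at 4 h, 3 with AvrRps4 at 8 h, 6 with AvrRpt2 at 8 h and 0 with AvrRpm1 at 8 h, where 2.31%, 8.06%, 3.50%, 9.67% and 16.6% of all genes rose. Medians in those comparisons were 0.47, 0.53, 0.82, 1.08 and 0.65. Without replicate 2 none of the 4 h calls held, at 1.74 (adjusted p = 0.552) for MKK4, 0.92 (0.897) for MKK5 and 1.59 (0.457) for MPK3 with AvrRpt2, and at 1.59 (0.145) for MKK4, 1.07 (0.273) for MPK3 and 1.01 (0.0648) for MEKK1 with AvrRpm1. At 8 h MKK1 and MKK2 with AvrRpt2 and MPK4 with AvrRpt2 were lost without the 10 libraries (0.83, 0.93 and 0.95), as were MKK4 (1.64, 0.0623) and MKK2 with AvrRps4. MPK3 with AvrRpt2 was lost without replicate 2 (1.61, 0.0545).

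Ethylene synthesis genes included 4 of 7 that rose at 0.5 h with EV, all of them ACC synthases, where 14.0% of all genes rose, with a median of 3.29. ACS6, whose protein is stabilised by MPK3 and MPK6, went from 25.1, 15.3 and 31.0 CPM to 312, 504 and 344, a change of 4.02 ± 0.49. It rose further with AvrRpm1, by 1.82 ± 0.45 at 4 h and 3.18 ± 0.47 at 8 h, and with AvrRpt2 by 2.41 ± 0.46 at 8 h. The 4 h call did not hold without replicate 2 (1.36, adjusted p = 0.155) or replicate 3 (1.69, 0.0734). Of 11 genes of ethylene perception and signalling 1 rose and 2 fell at 0.5 h, where 14.0% and 8.60% of all genes did, with a median of 0.23: the receptor gene EIN4 (1.07 ± 0.26), the receptor gene ETR2 (-1.61 ± 0.56) and the transcription factor gene EIL1 (-1.06 ± 0.30). EIN4 did not pass without replicate 1 (0.83) or the 10 libraries (0.98), and ETR2 did not without replicate 2 (-1.34, 0.113) or 3 (-1.82, 0.0518). At 4 h 3 rose and 1 fell, where 23.1% and 25.7% of all genes did, among them CTR1, the negative regulator of the pathway (1.74 ± 0.25).

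Defence genes with GCC boxes are the known kind of target of these factors. Of 6 listed 0 rose and 1, HEL, fell at 0.5 h (-2.20 ± 0.73), where 14.0% of all genes rose and 8.60% fell, with a median of -1.28, and HEL did not pass without replicate 3 (-1.67, adjusted p = 0.231). At 4 h HEL was higher than at T0 (1.55 ± 0.67), but not without replicate 1 (1.11, 0.207), 2 (1.43, 0.105) or 3 (2.01, 0.0541). CHIB, a basic chitinase, rose by 2.23 ± 0.66 with AvrRpt2 and by 2.1 ± 0.65 with AvrRpm1 at 8 h. Neither passed without replicate 2 (1.61, 0.251, and 1.12, 0.403), and the former not without the 10 libraries (1.91, 0.0605). In 2 defensin genes the call came from 1 replicate. PDF1.2c had 0.0622, 13.1 and 0.597 CPM with AvrRps4 at 8 h (3.93 ± 1.24, then 0.17 without replicate 2 and 3.61, 0.165, without the 10 libraries), and PDF1.3 had 0.0592, 0.746 and 16.5 CPM with AvrRpt2 at 8 h (4.21 ± 1.2, and -0.00502 without replicate 3).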

How the data were processed

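Leaf RNA was sequenced as 50-base single-end reads, per the labels' protocols, and the submitters' processing notes name FastQC 0.11.7, Trimmomatic 0.36, HISAT2 2.1.0, featureCounts from Subread and TAIR10. The authors deposited raw read counts per gene and library, and no normalized values were used. Groups and replicate numbers come from the labels. Libraries with the same group and replicate number were summed.

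TMM factors of 0.655 to 1.50, the low-count filter of edgeR 4.0.16 (R 4.3.3, limma 3.58.1) and 1 quasi-likelihood fit of 52 group means, each of 3 replicates, served all 78 comparisons, with p-values adjusted (Benjamini-Hochberg) over 19687 genes in each. The fit was tested on simulated data, with known changes put into AvrRps4 against EV at 4 h in Col-0. Among genes with at least 50 expected counts it called 15 of 50 at a true log2 change of 1. At changes of 2, 3 and 4 it called 41, 48 and 50 of 50, so changes near the threshold were often missed. Alternatives were RLE factors, no filter, DESeq2 1.42.0, leaving out each replicate number or the 10 libraries against their label, the replicate number as a block, the compared groups only, and 1 library per replicate. The replicate numbers counted as pairing the samples where same-numbered replicates deviated together with r over 0.1 for every number, which held in 25 of 78 comparisons.

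Genes named beyond the 6 are list members past the threshold with the largest changes, neighbours in the genome and the profiles most like each gene (Pearson's r of log2 CPM, prior count 2). The 6 genes, the lists, the ratio limit of 10 for the label check and the tests were chosen with earlier results of these data known. Markers of other cell types were summed as a check of the tissue.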

Additional observations from a re-analysis of the deposited data

Results flagged for a closer look

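In 2 genes of the fixed lists the response to AvrRps4 at 8 h differed between helperless and Col-0. The test was of the difference itself, and by it 1.56% of all genes were lower. The 2 genes were 1 of 9 tested in the MAP kinase cascade and 1 of 6 defence genes with GCC boxes. MKK1, a MAP kinase kinase of the immune cascade, had 25.3, 25.5 and 11.9 CPM under EV and 50.4, 59.4 and 62.7 with AvrRps4 in Col-0, against 12.3, 18.3 and 36.7 and then 10.2, 15.7 and 22.2 in helperless. The response was 1.46 ± 0.31 in Col-0, which passed, and -0.49 ± 0.31 in helperless, which did not. The difference was -1.95 ± 0.44 (edgeR adjusted p = 0.00439). Replicate 3 of both EV groups goes against its label, and without the 10 such libraries the difference was -1.11 ± 0.44 (0.398). It was also lost without replicate 2 (-2.19, 0.0518), without replicate 3 (-1.36, 0.528), with only the compared groups (-1.93, 0.11) and with 1 library per replicate (-1.86, 0.094).

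CHIB, a basic chitinase gene with a GCC box, stood at 1.41 ± 0.65 in Col-0 (edgeR adjusted p = 0.181) and at -2.49 ± 0.69 in helperless. Neither change passed by itself. In helperless it had 12.9, 2.82 and 3.13 CPM under EV and 1.12, 0.632 and 1.51 with AvrRps4. The difference was -3.90 ± 0.95 (0.00973). It stood at -3.99 (0.0654) without the 10 libraries, at -3.25 (0.412) without replicate 2, at -4.16 (0.0716) without replicate 3, at -3.88 (0.0925) with only the compared groups and at -2.88 (0.243) with 1 library per replicate. Of the 6 ERF genes none passed this test.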

How the results depend on the processing

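For the 6 genes 468 values were tested and 91 passed. None of these calls changed sign under the 10 alternatives. Of the 91 calls RLE factors lost 3, no filter 3, DESeq2 1, the fit without the 10 libraries against their label 5, the compared groups only 4, 1 library per replicate 12, and leaving out replicate 1, 2 or 3 lost 3, 25 and 19. Calls were gained mainly without replicate 1 (21), with the compared groups only (16) and in DESeq2 (11). Of 780 recomputed counts of genes called in a comparison 723 stayed within 1.5 times the reported count. The 723 include comparisons that had no call in the main fit and gained none. The main fit gave no call in any of the 18 interactions or the 4 comparisons between effectors. Of the 78 comparisons 19 had a count that left this range at least once, and 59 did not. The cause of the changes below was not tested. The share of all genes called under each alternative is not given beside them. A changed count is therefore not a result about these 6 genes alone.

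Counts are out of 6, in Col-0 unless named. Without the filter AvrRpt2 at 4 h in adr1 gave 0 in place of 1, and RLE factors gave 0 there and in Col-0. DESeq2 gave 2 in place of 1 for AvrRpt2 at 4 h and AvrRps4 at 8 h, 3 in place of 1 for adr1 at T0, and 1 in place of 0 for AvrRps4 at 8 h in adr1, the AvrRps4 response at 8 h in helperless and AvrRps4 against AvrRpt2 at 8 h. Without the 10 libraries AvrRpt2 at 4 h gave 0 in Col-0, nrg1 and adr1. With only the compared groups EV from 4 to 8 h gave 2, AvrRpt2 at 4 h 2, and in helperless 1, adr1 at T0 0, the helperless AvrRps4 response 1 and AvrRpm1 against AvrRpt2 at 8 h 2. With 1 library per replicate EV at 8 h against T0 gave 4, EV from 4 to 8 h 0, AvrRpt2 at 4 h 0 in Col-0 and adr1, AvrRpm1 at 4 h in adr1 1, AvrRps4 at 8 h 0, in nrg1 1 and in adr1 2, and adr1 at T0 0.

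Leaving out a replicate number gave 3 to 5 for EV at 4 h against T0 and 2 to 4 in adr1, 2 to 4 for EV at 8 h against T0, 3 to 6 for EV from 0.5 to 4 h and 0 to 1 for EV from 4 to 8 h. AvrRpt2 at 4 h gave 0 to 2, with 0 to 1 in each mutant, and AvrRpm1 at 4 h 0 to 3 in nrg1 and 1 to 3 in adr1. AvrRps4 at 8 h gave 0 to 2, 0 to 1 in nrg1 and 0 to 3 in adr1, AvrRpt2 at 8 h in helperless 1 to 5, and adr1 at T0 0 to 3.

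With the replicate number as a block no call was lost and 6 were gained. The counts became 2 for AvrRpt2 at 4 h, 1 for the same in helperless, 1 for the helperless AvrRps4 response at 8 h and 1 for AvrRps4 against AvrRpt2 at 8 h. The correlation of same-numbered deviations was -0.44 to 0.59 over the 78 comparisons, with a median of 0.14.

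Among listed genes 97 calls were recomputed, and leaving out replicate 2 lost 40 of them. Direction turned for PDF1.3 with AvrRpt2 at 8 h without replicate 3 (-0.00502, against up to 6.22 over the other replicates left out) and for PDF1.2c with AvrRps4 at 8 h with 1 library per replicate (-1.88). Levels without TMM factors were 0.747 to 1.41 times those given.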

Other observations

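Libraries of 1 replicate differed beyond counting error. For genes whose mean count was 50 or more, the chi-square per degree of freedom was 3.44 to 104 in these pairs, with a median of 16.6. For the 6 genes the median size of the log2 ratio between such libraries was 0.24 for ERF2, 0.35 for ERF1A, 0.38 for ERF5, 0.42 for ERF6 and ERF104 and 0.50 for ERF105. The largest was 3.02, for ERF2 in replicate 1 of helperless at T0.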
